A study of Mus musculus with 16 samples.

Results

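The 10 genes described here encode the proteins that bring triglyceride fatty acids into heart muscle and that store and release them there. They were chosen by name as genes of lipoprotein lipase, lipid droplets and lipolysis, with earlier results of these data known. They are Lpl, Gpihbp1, Angptl4, Cd36, Pnpla2, Lipe, Plin2, Plin4, Plin5 and Hilpda, and all 10 were among the 18193 genes measured. Each gene was read from 1 Affymetrix probe set, the one of highest mean over the 16 arrays among those annotated to that gene alone. The 10 genes have 17 such probe sets in all, and the other 7 served as a check.

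The hearts came from male mice aged 14 weeks on a CD1 background. Genotype was either A2AR KO, that is, deletion of the adenosine 2A receptor on which cells sense extracellular adenosine, or WT littermate (wild-type), all from 1 breeding series. Each mouse had received 1 intraperitoneal injection, of sterile saline or of lipopolysaccharide (LPS, the endotoxin of gram-negative bacteria, here from E. coli) at 20 mg/kg, and ventricular myocardium was taken after 24 h. The 4 groups of 4 arrays were wild-type saline, wild-type LPS, A2AR knockout saline and A2AR knockout LPS. Because the labels number the arrays of a group but do not say outright that each is a separate animal, the p-values measure only the spread between these arrays. No level is given for the deleted receptor's transcript, so genotype rests on the labels.

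Heart muscle draws most of its energy from fatty acids. Lipoprotein lipase is made by cardiomyocytes, carried across capillary endothelium by GPIHBP1, and frees fatty acids from circulating triglyceride-rich lipoproteins, and ANGPTL4 inactivates it. Fatty acids that enter through CD36 are burned in mitochondria or stored as triglyceride in lipid droplets, which perilipins coat. Stored triglyceride is cut stepwise, first by adipose triglyceride lipase (Pnpla2) and then by hormone-sensitive lipase (Lipe), and HILPDA inhibits the first of these.

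Values are log2 RMA summaries, on which a difference of 1 is a doubling, and the median over all probe sets and arrays was 4.64. Array medians lay between 4.62 and 4.67. With microarrays it is the number of arrays, 4 per group, that limits precision. Cardiomyocyte markers stood near the top of the scale, with array means of 13.22 to 13.82 over 8 genes, so the labelled tissue was borne out. A few arrays stood apart. Wild-type LPS array 4 differed from the other arrays of its group by a root mean square of 0.52 over all genes, against 0.36 to 0.39 for the others. Wild-type saline arrays 1 and 4 carried skeletal muscle transcripts, with means over 8 markers of 6.04 and 7.43, while every other array lay between 4.15 and 4.43. Knockout LPS array 2 differed from its group by 0.45, the others there by 0.32 to 0.38. For the 10 genes, values without these arrays are given where a call was lost or gained or a fold moved by over 1.5 times. For the related lists, counts of calls that moved in the genotype of the arrays left out are given below. Those of the other genotype are not listed.

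LPS raised most of the 10 genes in both genotypes and lowered none past the threshold. In wild-type hearts 7 of the 10 rose, namely Angptl4, Plin2, Pnpla2, Plin4, Hilpda, Lipe and Gpihbp1, against 9.28% of all genes called higher, 11.6% lower and 20.9% in either direction. In knockout hearts 9 rose, the same 7 with Plin5 and Cd36, against 11.4% of all genes called higher, 14.7% lower and 26.1% in either direction. In both genotypes Lpl was not called. Their median log2 change was 0.83 (wild-type) and 1.07 (knockout), whereas over all genes it was 0.00 (-0.0035) and -0.02. A gene was called when its Benjamini-Hochberg adjusted p over all 18193 genes in limma was under 0.05, and errors of log2 changes are limma standard errors. The values after LPS stood clear of those after saline for 6 of the 10 genes in wild-type hearts (22.8% of all genes) and for 7 in knockout hearts (28.5%).

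**Figure D1:**
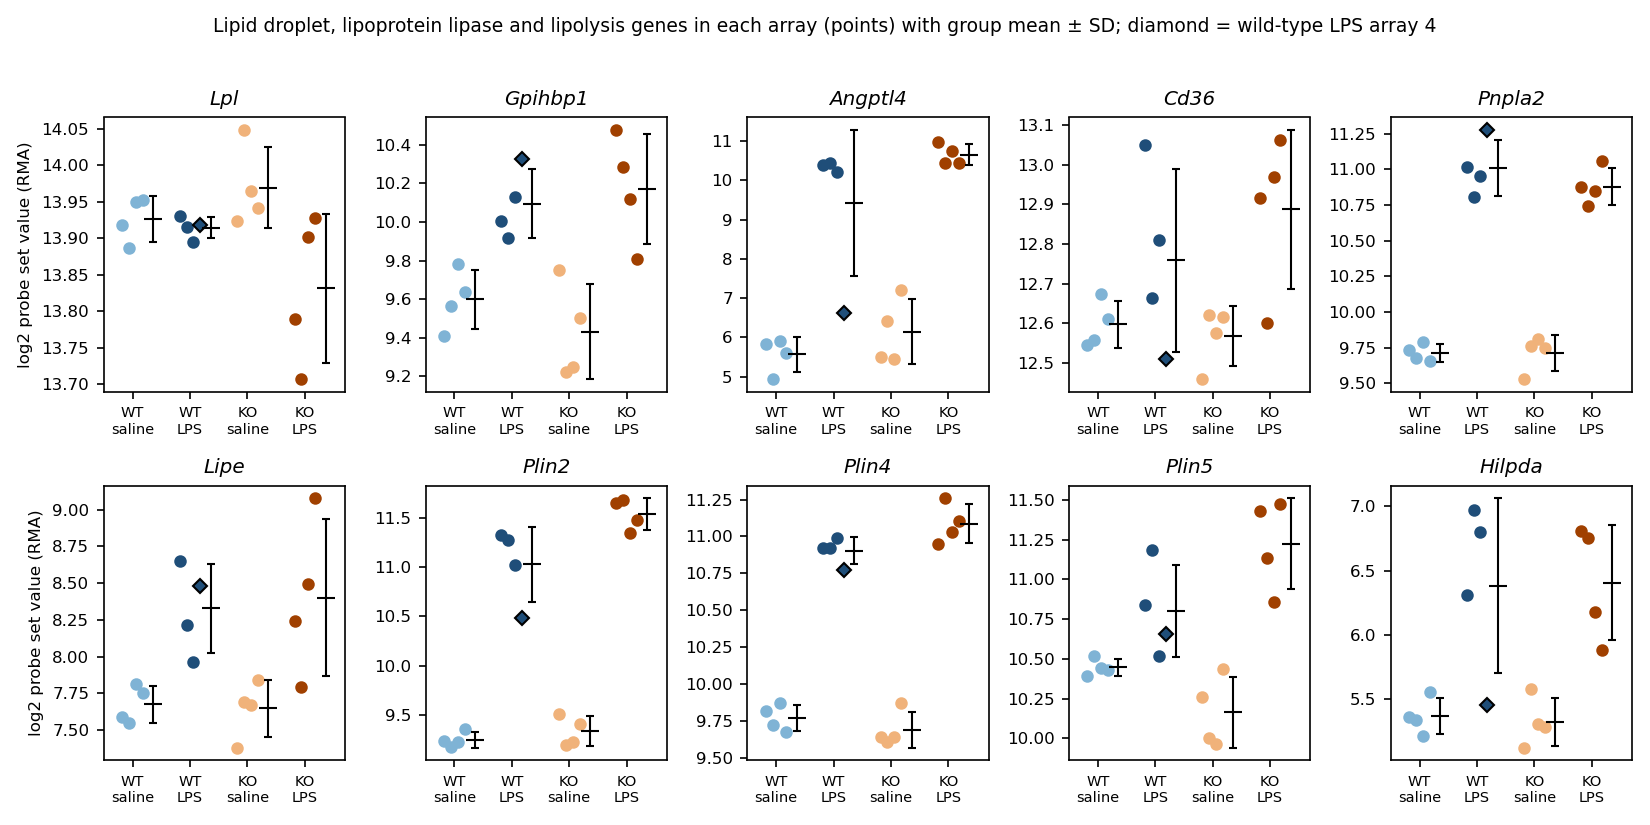
Log2 probe set values of the 10 genes in each of the 16 arrays, by group (WT, wild-type; KO, A2AR knockout), with the group mean and SD of 4 arrays beside the points. The diamond is wild-type LPS array 4, which was the lowest of its group for Angptl4 (6.62) and Hilpda (5.45) and the highest for Pnpla2 (11.28).

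Lpl, the enzyme itself, was called in neither genotype. Its probe set was very bright, with 18 of 45037 probe sets brighter, and signal near the top of the scale can compress differences, which was not tested. It stood at 13.92, 13.89, 13.95 and 13.95 in the wild-type saline arrays and 13.93, 13.92, 13.90 and 13.92 in the wild-type LPS arrays. The 2 groups overlapped fully, and the change was -0.01 ± 0.05 (95% interval -0.12 to 0.10, adjusted p = 0.915 in limma). In knockout hearts Lpl stood at 13.92, 14.05, 13.96 and 13.94 after saline and at 13.79, 13.71, 13.90 and 13.93 after LPS. Knockout LPS arrays 1 and 2 were the lowest of all 16, and the change was -0.14 ± 0.05 (adjusted p = 0.0617). That value depended on single arrays. It was -0.10 without knockout LPS array 2, the lowest (adjusted p = 0.159), and -0.17 without array 4 (adjusted p = 0.0238), and it passed the threshold in 5 of 25 alternative settings. The second, less bright Lpl probe set (mean 12.59, 216 brighter) gave 0.09 ± 0.18 for wild-type and -0.53 ± 0.18 for knockout mice, the latter at an adjusted p of 0.0514 over all probe sets, and the mean of both probe sets gave -0.33 in knockout hearts (adjusted p = 0.0383).

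Gpihbp1, the endothelial protein that anchors the lipase in capillaries, rose modestly. Its arrays ranged from 9.41 to 9.78 after saline and from 9.92 to 10.33 after LPS in wild-type hearts, and from 9.22 to 9.75 and from 9.81 to 10.48 in knockout hearts. Neither pair of groups overlapped. The rise was 0.50 ± 0.15 in wild-type hearts (1.41-fold, adjusted p = 0.0239 in limma) and 0.74 ± 0.15 in knockout hearts (1.67-fold, adjusted p = 0.00132). The wild-type call was lost without wild-type saline array 1 (adjusted p = 0.0798) or 2 (0.0575), or wild-type LPS array 3 (0.0569) or 4 (0.0518). Over the same arrays 0 of 8 endothelial markers rose, while 2 wild-type and 3 knockout changes were called lower. The wild-type falls numbered 4 without wild-type LPS array 4 and 0 without both wild-type saline arrays that stood apart. In a bulk sample fewer cells of a type and less RNA per cell cannot be told apart.

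Angptl4, the lipase inhibitor, showed the largest change of the 10 genes in both genotypes. In wild-type hearts it stood at 5.83, 4.93, 5.91 and 5.60 after saline and at 10.40, 10.44, 10.22 and 6.62 after LPS. Wild-type LPS array 4 was thus far below its group, yet still above every wild-type saline array. In knockout hearts Angptl4 stood at 5.51, 6.41, 5.46 and 7.20 after saline and at 10.99, 10.44, 10.74 and 10.45 after LPS, with no overlap. The rise was 3.85 ± 0.64 in wild-type (14.5-fold, adjusted p = 0.00033 in limma) and 4.51 ± 0.64 in knockout hearts (22.8-fold, adjusted p = 6.46e-05). Leaving out array 4 gave a wild-type rise of 4.79 (adjusted p = 2.43e-08), and the mean of both Angptl4 probe sets gave 2.24 and 2.96. The second Angptl4 probe set was dim (mean 3.22, highest array 6.42). It rose by 1.41 ± 0.48 in knockout hearts (adjusted p = 0.0487 over all probe sets), with 0.63 ± 0.48 in wild-type hearts (adjusted p = 0.470).

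Cd36, the fatty acid transporter of the cell membrane, was also bright, and its shifts were small. It ranged from 12.55 to 12.68 after saline and from 12.51 to 13.05 after LPS in wild-type hearts, a change of 0.16 ± 0.11 (adjusted p = 0.343 in limma). In knockout hearts it ranged from 12.46 to 12.62 and from 12.60 to 13.06, a rise of 0.32 ± 0.11 (1.25-fold, adjusted p = 0.0342) in groups that still overlapped at knockout LPS array 2. The call was lost in each setting that left out 1 knockout saline array or knockout LPS array 1, 3 or 4 (adjusted p from 0.0534 to 0.0940), and without both wild-type saline arrays that stood apart (0.0562). Without knockout LPS array 2, the lowest of its group, the rise was 0.42 (adjusted p = 0.00489). In knockout hearts the first of the 2 other Cd36 probe sets gave 0.34 ± 0.19 (adjusted p = 0.236). The second gave -0.01 ± 0.15 there (adjusted p = 0.978). The mean of all Cd36 probe sets gave 0.22 in knockout hearts, not called (adjusted p = 0.296). The wild-type change was called in 1 of 26 alternative settings, a fit that weighted the arrays (0.23, adjusted p = 0.0387).

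Of the lipases that act on stored triglyceride, Pnpla2 rose in every comparison of LPS with saline, with little spread. Wild-type arrays stood at 9.73, 9.68, 9.79 and 9.66 after saline and at 11.02, 10.80, 10.95 and 11.28 after LPS. Knockout arrays stood at 9.53, 9.76, 9.81 and 9.75 and at 10.87, 10.74, 10.85 and 11.06. All 8 LPS arrays lay above all 8 saline arrays, and here wild-type LPS array 4 was the highest of the 16. The rise was 1.30 ± 0.10 in wild-type hearts (2.46-fold, adjusted p = 1.43e-07 in limma) and 1.17 ± 0.10 in knockout hearts (2.24-fold, adjusted p = 4.59e-07). A second, dim Pnpla2 probe set (mean 4.26) rose by 0.94 ± 0.17 and 1.19 ± 0.17.

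Lipe rose less and with more spread. It ranged from 7.55 to 7.81 after saline and from 7.97 to 8.65 after LPS in wild-type hearts, and from 7.38 to 7.84 and from 7.80 to 9.08 in knockout hearts, where the groups overlapped. The rises were 0.65 ± 0.21 (1.57-fold, adjusted p = 0.0355 in limma) and 0.75 ± 0.21 (1.69-fold, adjusted p = 0.0135). The wild-type call was lost in each setting that left out 1 wild-type array other than LPS array 3 (adjusted p from 0.0505 to 0.110). The other Lipe probe set lay at 3.32 to 3.78 in all arrays, under the median of all probe sets, and was called in neither genotype (0.07 ± 0.09 and 0.02 ± 0.09, adjusted p = 0.704 and 0.914).

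Hilpda, the small droplet protein that inhibits the first lipase, was dim after saline, at 5.36, 5.34, 5.22 and 5.56 in wild-type and 5.13, 5.58, 5.31 and 5.29 in knockout hearts. After LPS it stood at 6.31, 6.97, 6.80 and 5.45 in wild-type and at 6.81, 6.76, 6.18 and 5.89 in knockout hearts. Wild-type LPS array 4 lay within the saline range, and the knockout groups did not overlap. The rise was 1.01 ± 0.27 in wild-type (2.02-fold, adjusted p = 0.0108 in limma) and 1.08 ± 0.27 in knockout hearts (2.12-fold, adjusted p = 0.00583). Leaving out that array gave a wild-type rise of 1.32 (adjusted p = 0.000137), and without wild-type saline arrays 1 and 4 it was 1.10 (adjusted p = 0.0526).

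The 3 perilipins among the 10 genes rose together in knockout hearts, and of the 3 only Plin5 was not called in wild-type hearts. Plin2, which coats droplets in most cell types, stood at 9.23, 9.17, 9.22 and 9.36 in wild-type saline arrays and at 11.33, 11.27, 11.02 and 10.49 in wild-type LPS arrays. In knockout hearts it stood at 9.51, 9.20, 9.23 and 9.41 after saline and at 11.65, 11.68, 11.34 and 11.48 after LPS. No group pair overlapped by treatment, and the lowest LPS value was again that of wild-type array 4. The Plin2 rise was 1.78 ± 0.15 for wild-type (3.44-fold, adjusted p = 2.53e-07 in limma) and 2.20 ± 0.15 for knockout mice (4.60-fold, adjusted p = 2.08e-08).

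Plin4, a perilipin of adipocytes and striated muscle, varied little within groups. Its wild-type arrays stood at 9.82, 9.72, 9.87 and 9.67 after saline and at 10.92, 10.92, 10.99 and 10.77 after LPS. Its knockout arrays stood at 9.64, 9.61, 9.64 and 9.87 and at 10.95, 11.26, 11.03 and 11.10. No saline array reached an LPS array, and the rises were 1.13 ± 0.09 (2.19-fold, adjusted p = 1.52e-07 in limma) and 1.40 ± 0.09 (2.63-fold, adjusted p = 1.23e-08).

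Plin5, the perilipin of oxidative muscle that ties droplets to mitochondria, stood at 10.39, 10.52, 10.45 and 10.43 in wild-type saline arrays and at 10.84, 11.19, 10.52 and 10.65 in wild-type LPS arrays. These groups overlapped, since LPS array 3 lay below saline array 2, and the change was 0.35 ± 0.15 (adjusted p = 0.123 in limma). That change passed the threshold in 1 of 25 alternative settings, a fit that weighted the arrays (0.42, adjusted p = 0.0413). In knockout hearts Plin5 stood at 10.26, 10.003, 9.96 and 10.44 after saline and at 11.43, 11.14, 10.86 and 11.47 after LPS. These did not overlap, and the rise was 1.06 ± 0.15 (2.08-fold, adjusted p = 7.62e-05). The second Plin5 probe set gave the same pattern of calls, 0.48 ± 0.20 (adjusted p = 0.122) and 0.87 ± 0.20 (adjusted p = 0.00429).

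**Figure D2:**
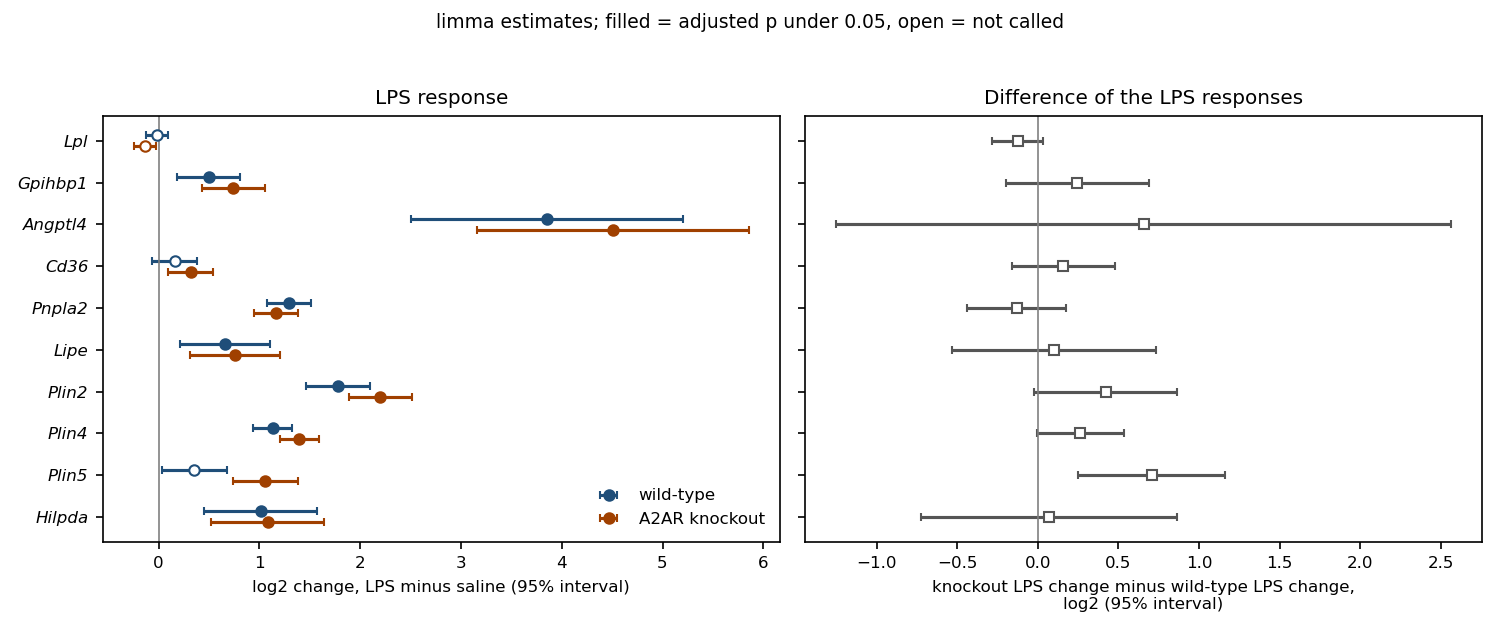
Left, log2 change from saline to LPS for each of the 10 genes in wild-type (blue) and A2AR knockout (brown) hearts. Right, knockout change minus wild-type change, with 95% limma intervals in both panels, and filled symbols mark adjusted p under 0.05. The LPS changes run from -0.01 (Lpl) to 3.85 (Angptl4) in wild-type hearts and from -0.14 to 4.51 in knockout hearts, and 0 of the 10 differences is called.

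The start regions of the droplet genes that rose in knockout hearts are shown because Plin4 and Plin5 lie next to each other on mouse chromosome 17, with 0 annotated genes between them, and moved in the same direction. RefSeq windows (build GRCm38.p6, 250 bases before to 50 after an annotated start, 5′ to 3′ on the gene's strand) were listed for 7 of the 10 genes, in 10 windows, and not for Lpl, Gpihbp1 and Angptl4. Capitals mark matches, on either strand, to ACGTG, the core bound by hypoxia-inducible factors, and to AGGTCA, the hexamer bound by nuclear receptors such as the PPARs. Plin2 (chr4:86670010-86670309, minus strand) and Hilpda (the second of its 2 windows, chr6:29272376-29272675, plus strand) hold the first motif. Plin2 and Plin5 (the first of its 2 windows, chr17:56117499-56117798, minus strand) hold the second, and Plin4 (chr17:56109733-56110032, minus strand) holds neither.
Plin2: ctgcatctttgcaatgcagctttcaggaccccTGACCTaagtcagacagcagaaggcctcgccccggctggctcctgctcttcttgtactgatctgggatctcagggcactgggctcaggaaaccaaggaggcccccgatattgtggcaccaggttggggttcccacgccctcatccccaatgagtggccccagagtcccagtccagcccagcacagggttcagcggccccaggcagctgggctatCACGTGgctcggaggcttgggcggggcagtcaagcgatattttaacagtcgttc
Hilpda: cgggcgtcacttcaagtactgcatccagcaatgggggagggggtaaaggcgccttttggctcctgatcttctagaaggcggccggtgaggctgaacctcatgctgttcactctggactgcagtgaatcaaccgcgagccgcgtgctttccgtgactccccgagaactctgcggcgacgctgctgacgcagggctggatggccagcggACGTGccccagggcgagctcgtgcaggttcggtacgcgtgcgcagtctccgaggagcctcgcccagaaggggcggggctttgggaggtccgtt
Plin5: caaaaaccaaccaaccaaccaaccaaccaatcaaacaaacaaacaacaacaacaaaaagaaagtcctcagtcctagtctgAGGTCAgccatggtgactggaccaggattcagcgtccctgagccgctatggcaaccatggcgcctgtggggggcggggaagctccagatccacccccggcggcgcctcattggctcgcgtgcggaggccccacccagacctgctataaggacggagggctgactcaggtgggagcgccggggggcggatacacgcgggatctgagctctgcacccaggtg
Plin4: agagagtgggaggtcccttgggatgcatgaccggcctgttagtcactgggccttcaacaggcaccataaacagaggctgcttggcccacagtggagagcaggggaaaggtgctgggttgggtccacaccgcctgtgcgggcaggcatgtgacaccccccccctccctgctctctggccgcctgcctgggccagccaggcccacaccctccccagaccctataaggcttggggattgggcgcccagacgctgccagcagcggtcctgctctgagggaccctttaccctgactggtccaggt

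The capitals CACGTG of Plin2 read ACGTG on both strands. They begin 4 bases before the annotated start and run across it. Hilpda has its ACGTG 43 bases before the start, and AGGTCA begins 218 bases before the start in Plin2, where it lies on the opposite strand, and 170 bases before it in Plin5. Of all 32851 RefSeq windows of 300 bases, 19.6% hold ACGTG and 16.3% hold AGGTCA. Among the other listed windows, the first Lipe window also holds CACGTG, Cd36 holds AGGTCA, and the second Plin5 window holds AGGTCA. TTCNNNGAA, the palindrome of STAT factors, was in the first Lipe window alone (8.30% of all windows). The full PPAR type direct repeat (0.0396% of all windows) and the glucocorticoid type palindrome (0.475%) were in 0 of the 10 windows. These are matches of letters within these windows and are not evidence of binding.

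The comparison of genotypes asks whether loss of the A2AR shifts these genes at rest or under endotoxin. After saline 0 of the 10 genes was called in limma, against 0.00550% of all genes (1 gene). An unadjusted p under 0.05 was found for 0 of the 10, against 634 of all 18193 genes. The largest differences in size were those of Angptl4 (0.58 ± 0.64) and Plin5 (-0.28 ± 0.15). Every gene's knockout and wild-type saline arrays overlapped, where 3.89% of all genes did not overlap. For Pnpla2 the difference was 0.00 (-0.00125 ± 0.103), with a 95% interval of -0.22 to 0.22, and for Plin4 the interval was -0.27 to 0.11.

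After LPS again 0 of the 10 was called, against 0.00550% of all genes. An unadjusted p under 0.05 was found for 2 of the 10, Plin2 and Plin5, against 1375 of all 18193 genes. Plin2 was 0.51 ± 0.15 higher in knockout than in wild-type LPS hearts (unadjusted p = 0.00323, adjusted p = 0.594 in limma). Each knockout array lay above each wild-type array, but narrowly, with knockout array 3 at 11.34 and wild-type array 1 at 11.326. Without wild-type LPS array 4 the difference was 0.33 (adjusted p = 0.560). Plin5 was 0.42 ± 0.15 higher (unadjusted p = 0.0131, adjusted p = 0.640) in groups that overlapped. Angptl4 was the other gene whose groups did not overlap, where 2.26% of all genes did not. The Angptl4 groups all but touched, with knockout array 2 at 10.44 and wild-type array 2 at 10.436. The Angptl4 difference was 1.24 ± 0.64 (adjusted p = 0.681). Leaving out wild-type LPS array 4 brought it to 0.30 (adjusted p = 0.824).

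The difference of the LPS responses, knockout minus wild-type, was called for 0 of the 10 genes and for 0 of all 18193 genes (0%), of which 813 had an unadjusted p under 0.05. Among the 10 genes only Plin5 had one. Its response was larger by 0.71 ± 0.22 in knockout hearts (95% interval 0.25 to 1.16, unadjusted p = 0.00467, adjusted p = 0.959 in limma), and by 0.39 ± 0.28 on its second probe set. This difference shares its arrays with the saline and LPS comparisons above. It sums a lower knockout level after saline and a higher one after LPS, neither of which was called. The intervals of Plin4 (-0.01 to 0.53) and Plin2 (-0.02 to 0.87) reached 0, and that of Angptl4 ran from -1.25 to 2.56. Without wild-type LPS array 4 the Angptl4 difference of 0.66 became -0.28, also not called. Plin5 passing the threshold for LPS in knockout hearts and not in wild-type hearts is therefore not shown to be a difference between the genotypes.

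Related genes moved in both directions. For lipase maturation, lipase cofactors and lipoprotein receptors 15 genes were measured, with 2 rises and 3 falls in wild-type hearts (median log2 change -0.05) and 1 rise and 3 falls in knockout hearts (median -0.02). Those that fell were led by Apoe, an apolipoprotein of lipoprotein clearance (-1.90 ± 0.39 and -2.37 ± 0.39). Lmf1, the chaperone that matures lipoprotein lipase in the endoplasmic reticulum, fell by 0.88 ± 0.27 and 0.97 ± 0.27. Vldlr, a receptor for triglyceride-rich lipoproteins, fell by 0.59 ± 0.17 and 1.15 ± 0.17. The wild-type calls of Lmf1 (adjusted p = 0.0280 in limma) and Vldlr (0.0210) were lost in 5 and 4 of the settings without 1 array (highest adjusted p 0.0989 and 0.0745). Both were also lost with the mean of all probe sets, at -0.43 for Lmf1 (adjusted p = 0.0733) and -0.56 for Vldlr (0.0718). With only the groups compared, the Vldlr call was lost too (0.0804).

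Among 10 measured fatty acid transport and binding genes, the wild-type calls were 1 rise and 1 fall, and the knockout calls 3 rises (medians -0.04 and 0.10). Acsl5, an acyl-CoA synthetase, rose by 1.08 ± 0.12 and 1.14 ± 0.12. In knockout hearts Acsl4, of the same family, rose by 1.10 ± 0.32 and Dbi, an acyl-CoA binding protein, by 0.48 ± 0.07, where the wild-type values, not called, were 0.86 ± 0.32 and 0.19 ± 0.07. Acsl4 was 6.32 in wild-type LPS array 4 and 7.67 to 8.34 in the others of that group, and without it the wild-type values were called, at 1.31 ± 0.18 (adjusted p = 4.12e-05) and 0.20 ± 0.07 (adjusted p = 0.0391). Fabp5, a fatty acid binding protein, fell by 0.69 ± 0.23 in wild-type hearts (adjusted p = 0.0404 in limma). That call was lost with the replicate number as a block (0.0589) and without any 1 of 8 arrays in turn (highest adjusted p 0.133).

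Of 21 genes of triglyceride synthesis and droplet assembly, wild-type hearts had 1 rise and 6 falls and knockout hearts 2 rises and 5 falls (medians -0.14 and -0.15). The lipins, phosphatidate phosphatases of triglyceride synthesis, moved apart. Lpin1 fell by 1.55 ± 0.26 and 1.79 ± 0.26, while Lpin3 rose by 1.04 ± 0.17 and 1.11 ± 0.17 and Lpin2 rose by 0.89 ± 0.21 in knockout hearts. The wild-type change of Lpin2 was 0.53 ± 0.21 (not called), and 0.72 ± 0.19 without wild-type LPS array 4 (adjusted p = 0.0111). Cidec, the droplet fusion protein of adipocytes, stood at 4.35, 4.53, 4.73 and 4.97 in wild-type saline arrays and at 3.40 to 3.71 in knockout saline arrays, close to the dim end of the scale. It is also 1 of the adipocyte markers. It was the 1 gene of these lists called in a genotype comparison, lower by 1.04 ± 0.13 in knockout hearts after saline (adjusted p = 0.005 in limma), and it fell by 1.11 ± 0.13 with LPS in wild-type hearts. Plin3, another perilipin, had changes of -0.05 ± 0.26 and -0.46 ± 0.26 that were not called. It was chosen after its values were seen.

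Among 10 measured partners of the lipases, 5 fell and 0 rose in wild-type hearts (limma), where 5 were not called, and 5 fell and 2 rose in knockout hearts (medians -0.37 and -0.45). Proteins that act on adipose triglyceride lipase moved in different directions, as its inhibitor Hilpda rose. G0s2, another inhibitor, stood at 9.23, 9.04, 9.58 and 9.64 after saline and 7.87, 8.62, 7.62 and 8.37 after LPS in wild-type hearts, and fell by 1.25 ± 0.25 there and by 0.74 ± 0.25 in knockout hearts. The knockout call (adjusted p = 0.0409) was lost without any 1 of 7 arrays in turn, with a fall of 0.47 (adjusted p = 0.134) without knockout LPS array 2. Abhd5, the activator of that lipase, fell by 0.51 ± 0.12 and 0.64 ± 0.12, and its wild-type call was lost without both wild-type saline arrays that stood apart (-0.45, adjusted p = 0.0923). Faf2, which binds the lipase, rose by 0.58 ± 0.16 in knockout hearts and stood 0.23 ± 0.16 higher in wild-type hearts (adjusted p = 0.359). Abhd5 and Faf2 were chosen after their values were seen. Ces1d, a carboxylesterase that also cuts triglyceride, fell by 1.31 ± 0.23 and 1.78 ± 0.23. Mgll, which cuts monoglycerides, fell by 0.89 ± 0.19 in wild-type hearts, with -0.43 ± 0.19 in knockout hearts (adjusted p = 0.112). Pnpla3, a relative of Pnpla2, rose by 1.29 ± 0.35 in knockout hearts, with 0.45 ± 0.35 in wild-type hearts (adjusted p = 0.431).

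Regulated neighbours of the 10 genes moved in part. Of 14 measured PPAR-responsive genes of fatty acid use, 3 rose and 0 fell in wild-type hearts (limma), where 11 were not called, and 4 rose and 2 fell in knockout hearts (medians 0.11 and 0.01). The 3 largest rises were shared. Pdk4, which blocks pyruvate dehydrogenase, rose by 1.87 ± 0.38 and 2.17 ± 0.38, Ucp3, a mitochondrial carrier, by 1.66 ± 0.50 and 1.97 ± 0.50, and Acot1, an acyl-CoA thioesterase, by 1.56 ± 0.38 and 1.39 ± 0.38. The wild-type rise of Ucp3 was 2.42 without wild-type LPS array 4, and its call was lost without any 1 of 6 other wild-type arrays in turn (adjusted p from 0.0523 to 0.0837). Of 18 hypoxia-inducible genes, 4 rose and 6 fell in each genotype (medians -0.22 and -0.10). Pfkfb3, which promotes glycolysis, rose by 2.69 ± 0.26 and 3.07 ± 0.26, or by 1.69 and 1.87 with the mean of all its probe sets. Hmox1, haem oxygenase, rose by 2.34 ± 0.40 and 1.59 ± 0.40, while Vegfa, the vascular growth factor, fell by 1.61 ± 0.21 and 1.47 ± 0.21.

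The counts of these lists moved with the arrays that stood apart. Leaving out wild-type LPS array 4 gave wild-type calls of 3 rises and 1 fall for fatty acid transport. PPAR-responsive genes then had 4 rises and 1 fall, and triglyceride synthesis 2 rises and 8 falls. Lipase maturation had 2 rises and 4 falls in that setting, and hypoxia-inducible genes 4 rises and 8 falls. Without knockout LPS array 2, the knockout calls were 2 rises and 2 falls for triglyceride synthesis and 2 rises and 3 falls for lipolysis. PPAR-responsive genes then had 4 rises and 1 fall, hypoxia-inducible genes 3 and 6, and fatty acid transport 3 and 1. Without both wild-type saline arrays, which leaves fewer arrays, lipase maturation had 0 rises and 1 fall in wild-type hearts. Triglyceride synthesis had 1 and 3 there, and lipolysis 0 and 4. PPAR-responsive genes had 1 and 0, hypoxia-inducible genes 3 and 2, and fatty acid transport 1 and 0.

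**Figure D3:**
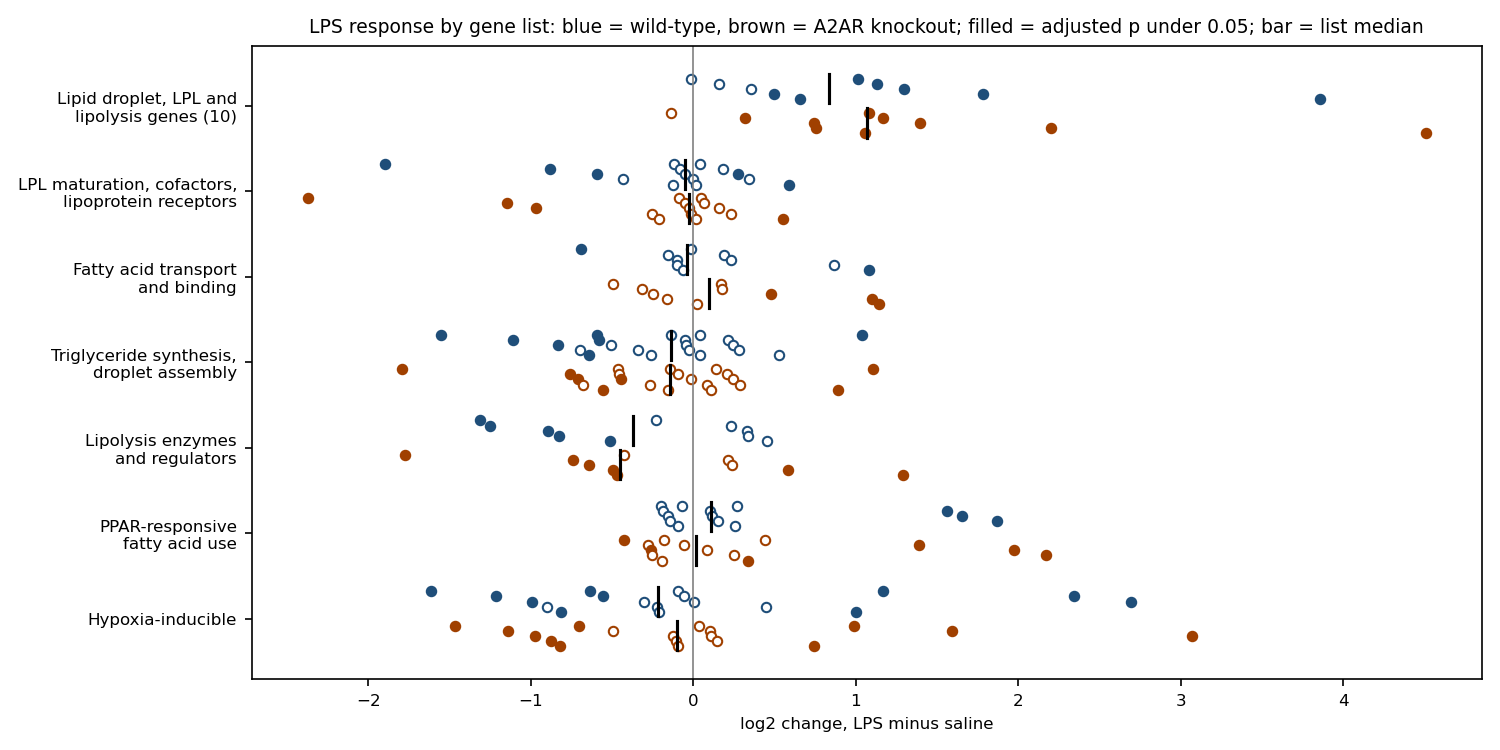
Log2 change from saline to LPS of the 10 genes and of 6 related gene lists, 1 point per gene and genotype, with the list median as a bar. The 10 genes have medians of 0.83 and 1.07, and those of the 6 lists lie between -0.45 and 0.11.

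The genes whose pattern over the 16 arrays was most like each of the 7 genes called in both genotypes were found by the root mean square difference of values centred on each gene's mean. For Pnpla2 the nearest were Flot1 (0.11 log2 units), Coq8b (0.15) and Zfas1 (0.17), where Pnpla2's own root mean square about its mean was 0.63. For Plin4 they were Flot2 (0.13), Birc2 (0.16) and Tbrg1 (0.16), against 0.64. Flot1 and Flot2 encode the paired membrane scaffold proteins flotillin 1 and 2. For Plin2 the nearest were Mvp (0.20), Psat1 (0.21) and Il4ra (0.22), against 1.03, and for Hilpda Txnrd1 (0.19), Tbc1d15 (0.20) and Asns (0.21), against 0.64. For Angptl4 they were Ptx3 (0.67), Inhbb (0.68) and Slc10a6 (0.69), against 2.33. Gpihbp1 lay nearest to Elovl1 (0.15), Anxa2 (0.15) and Arf3 (0.15), against 0.37, and Lipe to Mcrs1 (0.16), Hip1 (0.19) and Zfp809 (0.20), against 0.45. All points share the arrays and their normalization, and LPS makes most of each pattern.

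Several of the 10 genes, among them Plin4, Lipe, Lpl and Cd36, are also abundant in fat, so adipocyte markers were read in the same arrays. Adipoq, the adipocyte hormone, ranged from 7.57 to 8.66 in wild-type saline, 3.33 to 5.24 in wild-type LPS, 5.90 to 7.55 in knockout saline and 3.26 to 3.62 in knockout LPS arrays. Of 5 measured adipocyte markers 0 rose, and LPS lowered 3 of them in wild-type and 2 of them in knockout hearts. The mean over the 5 ranged from 6.97 to 7.34 and from 5.66 to 6.23 in wild-type saline and LPS arrays, and from 6.32 to 6.76 and from 5.52 to 5.82 in knockout arrays. Brown adipocyte markers, read because brown fat expresses several of the 10 genes, had 2 of 4 called lower in wild-type and 1 of 4 in knockout hearts. Their means ranged from 7.59 to 8.27 and from 7.26 to 7.51 in wild-type saline and LPS arrays, and from 7.33 to 7.87 and from 7.23 to 7.38 in knockout arrays. Ucp1, the defining brown fat gene, ranged from 4.45 to 6.50 in wild-type saline arrays and from 3.53 to 4.02 in wild-type LPS arrays. In knockout hearts Ucp1 ranged from 3.66 to 5.36 after saline and from 3.47 to 3.80 after LPS, and these groups overlapped. Cox8b, also on the brown list, lay between 12.97 and 13.43 in all arrays, near the cardiomyocyte marker means, and Cidea between 8.48 and 9.63. In knockout hearts Cox8b ranged from 13.26 to 13.36 after saline and from 12.97 to 13.10 after LPS. The part of heart muscle in the brown list was not tested. Lep, another defining adipocyte hormone, stayed between 3.16 and 3.59 in all arrays, under the median of all probe sets. Fabp4, also an adipocyte marker, ranged from 12.67 to 13.02 in wild-type saline and from 12.67 to 12.95 in wild-type LPS arrays. In knockout hearts Fabp4 ranged from 12.79 to 13.01 after saline and from 12.76 to 13.31 after LPS. The part of fat in the LPS changes of the 10 genes was not tested. Beside the genotype comparison after saline, the adipocyte means of the 4 knockout saline arrays lay below those of the 4 wild-type saline arrays, and the part of this in the saline differences was not tested.

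**Figure D4:**
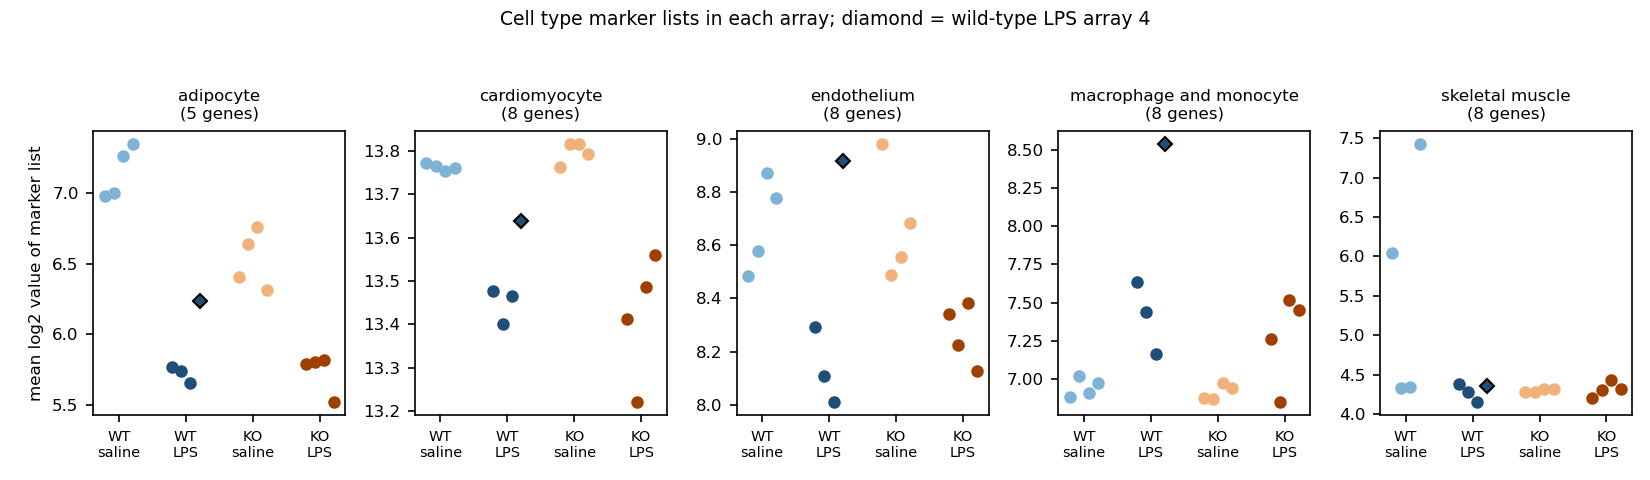
Mean log2 value of 5 cell type marker lists in each array, by group, with the number of genes averaged above each panel. Adipocyte means are lower after LPS in both genotypes, and wild-type LPS array 4 (diamond) has the highest macrophage mean of the 16 arrays (8.54).

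Wild-type LPS array 4, which was low for Angptl4, Hilpda and Plin2 and high for Pnpla2 and Gpihbp1, also differed in marker lists. Its macrophage and monocyte mean was 8.54, where arrays 1 to 3 of that group lay between 7.17 and 7.64, its endothelial mean 8.92 against 8.01 to 8.29, and its adipocyte mean 6.23 against 5.66 to 5.77. Its fibroblast mean was 10.25 against 8.99 to 9.85 and its cardiomyocyte mean 13.64 against 13.40 to 13.48, both nearer to the saline arrays. Its neutrophil mean was lower, 6.55 against 7.28 to 7.69. The part of these in its values was not tested. Macrophage and monocyte means lay between 6.85 and 8.54 after LPS and between 6.87 and 7.02 after saline, with 3 of 8 markers rising in each genotype, and with 1 falling for wild-type and 2 for knockout mice. All 4 measured neutrophil markers rose in both genotypes. Cardiomyocyte means fell from between 13.75 and 13.82 after saline to between 13.22 and 13.64 after LPS, with 4 of 8 markers called lower for wild-type and 5 for knockout mice. Of 7 fibroblast markers, 2 fell in each genotype, and their means went from between 10.20 and 10.46 after saline to between 8.84 and 10.25 after LPS. The part of infiltrating or lost cells in the changes of the 10 genes was not tested. Without wild-type saline arrays 1 and 4, the arrays with skeletal muscle transcripts, 4 of the 10 genes were still called in wild-type hearts, Angptl4, Pnpla2, Plin2 and Plin4, against 7 with all arrays. The changes that lost their call moved little, Gpihbp1 to 0.42 from 0.50, Lipe to 0.65 from 0.65 and Hilpda to 1.10 from 1.01, in a fit with fewer arrays.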

How the data were processed

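Total RNA of ventricular myocardium was purified (Trizol, RNeasy) and hybridised as biotinylated cRNA, 1 array per sample, per the labels. The authors deposited log2 probe set values made with RMA, per the submitters' processing notes; the RMA version is not given in the sources used here. Of 45101 probe sets, 0 had missing values. Left out were 64 control probe sets, 932 annotated to several genes and 9160 unnamed here. The 34945 others were named through GEO's platform annotation, with symbols updated by Entrez identifier where the reference (GRCm38.p6) held it (34741), giving 18193 genes.

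All genes and all 16 arrays entered 1 fit with a coefficient for each group in limma 3.58.1 (R 4.3.3), with an intensity trend in the moderated variance, 12 residual degrees of freedom and two-sided tests, and was tested on simulated data. Of 5 contrasts, 2 compared LPS with saline (1 per genotype), 2 compared the genotypes (1 per treatment) and 1 was the interaction. The 10 genes, gene lists and tests were chosen with earlier results of these data known. Named list genes were the up to 3 called genes of largest change per list and LPS comparison and any called between genotypes. Alternatives were the mean over probe sets, a filter on dim genes, median centring, no trend, array weights, only the groups compared, a replicate block, and arrays left out.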

Additional observations from a re-analysis of the deposited data

Results flagged for a closer look

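A single array lay far from the other 3 of its group for 2 of the 10 genes, by Dixon's gap ratio over 40 sets of 4 arrays, of which chance alone marks about 1 in 20. Angptl4 was 6.62 in wild-type LPS array 4, where the others lay between 10.22 and 10.44 (gap over range 0.94). Plin4 was 9.87 in knockout saline array 4, where the others lay between 9.61 and 9.64 (gap over range 0.88).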

How the results depend on the processing

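Of 393 alternative values of called LPS changes of the 10 genes, 365 stayed called in the same direction and 27 lost the call. The 1 reversed is Cd36 in knockout hearts, -0.0095 on another probe set. Of 832 alternative values of changes that were not called, 7 became called and 40 changed sign without a call. Without both wild-type saline arrays with skeletal muscle transcripts, 4 of the 10 genes and 2061 of all genes were called for LPS in wild-type hearts, against 7 and 3798; those fits have fewer arrays. Leaving out 1 array at a time gave 5 to 7 of the 10 genes in wild-type and 8 to 9 in knockout hearts, and 0 in each genotype comparison. Over all genes it gave 3006 to 4902 and 3871 to 5527 for LPS, 1 to 5 for genotype after saline and 0 to 3 after LPS. Called after saline were 0 genes with the filter on dim genes, 21 with array weights and 14 with only the groups compared, against 1. Called after LPS were 0 with only the groups compared and 0 without both wild-type saline arrays, against 1. The causes were not tested. With the replicate number as a block, 7 and 9 of the 10 genes were called for LPS (3537 and 4487 of all genes), and the block changed no call of the 10 genes. The numbers did not pair the arrays: deviations of same-numbered arrays correlated at -0.271 to 0.33 over genes (median -0.032), above 0.1 in 3 of 24 pairs, and 4 of 16 arrays correlated best with their own number. Dim probe sets give changes that depend on the background.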
